A study of Mus musculus with 10 samples.

Results

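The DNA replication and mitosis genes described here are 48 genes, 15 that act in or before S phase and 33 that act in G2 and mitosis, out of 39056 genes in a table of read counts from mouse liver and liver tumours. They were chosen by name, as textbook genes of genome copying and cell division, and all 48 were matched to a gene identifier in the table. The animals were 11-month-old males of the C57BL/6 strain, wild type (WT) or MLK3-KO, which lack the kinase MLK3 encoded by Map3k11. Control mice of both genotypes drank plain water, and their liver gave 2 WT and 2 KO libraries. Treated mice of both genotypes received DEN, a liver carcinogen, as 1 intraperitoneal injection (5 µg per g of body weight) when 2 weeks old. From 1 week later until killing, their drinking water held 0.05% PB, a tumour promoter. They gave 3 WT and 3 KO libraries. The labels call the treated samples tumour tissue, whereas the extraction text speaks of liver from treated animals, so these groups are named tumours here as labelled. Treatment and tumour cannot be told apart, because no library came from treated liver without a tumour or from an untreated tumour. The labels give neither the form of the knockout nor whether each tumour library holds 1 tumour or several.

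DNA replication begins when Cdc6 and Cdt1 load the ring-shaped MCM helicase onto origins in G1. In S phase the helicase is switched on and DNA polymerases copy the strands with the sliding clamp Pcna, on nucleotides that ribonucleotide reductase (Rrm1, Rrm2) and thymidylate synthase (Tyms) help to supply. Cyclin E, cyclin A and then cyclin B with Cdk1 drive the cell into mitosis, where kinesins, the kinetochore, the Aurora kinases and the anaphase-promoting complex separate the chromosomes. Adult hepatocytes are largely quiescent and carry little transcript of the mitotic genes, which E2F, B-Myb and FoxM1 complexes switch on late in the cycle in dividing cells.

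Promoter sequences are shown because genes of the 2 phases are known to carry different cell cycle elements next to their start sites. The windows run from 250 bases before to 50 after the start, taken from RefSeq on GRCm38.p6, and 39 of the 48 genes had one. The letters searched, on both strands, were TTTGAA or TTCGAA for the cell cycle homology region (CHR), CCAAT for the CCAAT box, and TTTCCCGC, TTTGGCGC, TTTCGCGC or TTTGCCGC for an E2F site. The 150 bases before the start are printed 5′ to 3′ on the gene's own strand, with every match in capitals and overlapping matches run together. Cdk1, Top2a and Ube2c are printed from the mitotic genes and Mcm6 from the helicase genes, as examples and not as typical members. Cdk1 lies at chr10:69352913-69353062 on the minus strand, Top2a at chr11:99024190-99024339 on the minus strand, Ube2c at chr2:164769779-164769928 on the plus strand and Mcm6 at chr1:128359706-128359855 on the minus strand.
Cdk1: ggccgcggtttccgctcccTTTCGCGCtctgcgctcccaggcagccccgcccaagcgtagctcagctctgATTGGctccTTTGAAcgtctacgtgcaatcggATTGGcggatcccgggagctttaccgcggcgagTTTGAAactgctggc
Top2a: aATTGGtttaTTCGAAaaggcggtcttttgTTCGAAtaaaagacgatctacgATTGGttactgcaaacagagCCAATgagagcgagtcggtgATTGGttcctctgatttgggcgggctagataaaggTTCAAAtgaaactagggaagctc
Ube2c: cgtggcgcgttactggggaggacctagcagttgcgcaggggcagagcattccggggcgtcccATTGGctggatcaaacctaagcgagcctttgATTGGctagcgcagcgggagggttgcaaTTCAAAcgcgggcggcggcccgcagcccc
Mcm6: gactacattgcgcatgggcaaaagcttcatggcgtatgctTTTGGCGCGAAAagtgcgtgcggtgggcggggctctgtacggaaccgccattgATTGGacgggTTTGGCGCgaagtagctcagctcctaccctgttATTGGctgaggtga

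The printed Cdk1 stretch held 2 CHR matches, 2 CCAAT boxes and 1 E2F match, whereas Mcm6 held E2F matches and CCAAT boxes and no CHR match. A CHR match was present in 21 of the 27 mitotic genes with a window (77.8%) and in 2 of the 12 S-phase genes (16.7%), against 21.7% of all 27025 genes with a window. A CCAAT box was present in 22 mitotic genes (81.5%) and 8 S-phase genes (66.7%), against 41.1% of all genes. An E2F match was present in 6 S-phase genes (50%) and 1 mitotic gene (3.7%), against 2.6% of all genes. That mitotic gene was Cdk1, and the helicase gene Mcm2 held a CHR match and no E2F match. CHR and CCAAT together were present in 20 mitotic genes (74.1%), against 9.65% of all genes. Such a match is a description of the letters and does not show that a factor binds there.

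**Figure D1:**
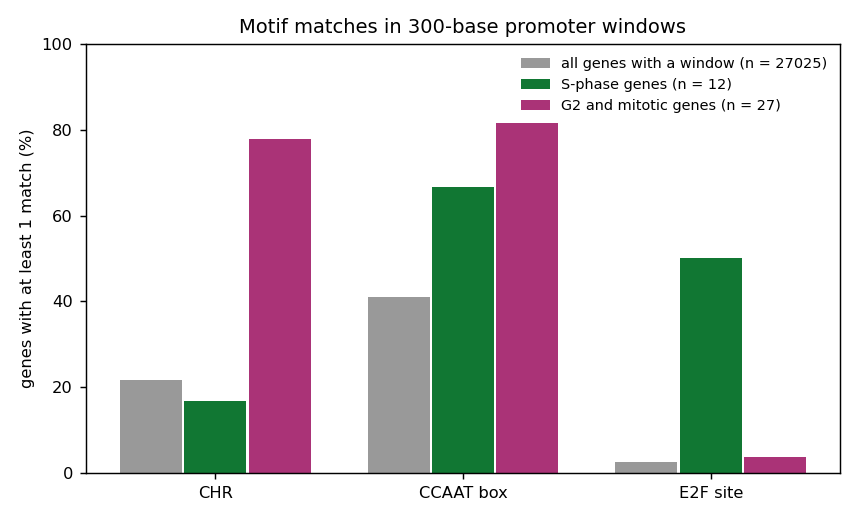
Share of genes (%, vertical axis) with at least 1 match to each motif in a 300-base promoter window, for all genes with a window, the 12 S-phase genes and the 27 G2 and mitotic genes. The CHR bar is highest for mitotic genes (77.8%) and the E2F bar is highest for S-phase genes (50%).

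Library totals ran from 12408749 to 18081487 counts. Levels are given as CPM, a count relative to library size after TMM scaling between libraries. Reads come from transcript ends, so a count depends little on transcript length. Where a gene had no count, 3 counts in that library (0.156 to 0.231 CPM) were taken as its upper limit, which covers counting error only. Counting intervals of ratios pool the reads of each group. They too cover counting error only and leave out the spread between libraries. Map3k11 itself had 126 and 237 counts in WT livers and 82 and 94 in KO livers. In tumours it had 131 to 234 counts (WT) and 81 to 147 (KO). The form of the knockout is not given, so whether these transcript-end tags lie in a deleted part is not known. They therefore do not check the knockout. Afp and Gpc3, fetal liver genes that are high in many liver tumours, had 55 and 7 counts in KO tumour 2, against at least 2000 and 608 in the other tumours. The library labelled KO tumour 2 thus resembled liver in both markers, and sums and counts over the KO tumours are also given without it, whereas tests of single genes include it. Hepatocyte markers such as Alb were present in all 10 libraries.

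Summed over the 48 genes, the level was 81.4 and 80 CPM in the WT livers and 90.4 and 128 CPM in the KO livers. It was 440, 283 and 355 CPM in the WT tumours and 204, 104 and 182 CPM in the KO tumours. All WT tumours lay above all other libraries, and KO tumour 2 lay between the 2 KO livers. The mean sum of WT liver was 80.7 ± 0.985 CPM and that of KO liver 109 ± 26.5 CPM (SD, n = 2 each), and the WT tumours averaged 359 ± 78.6 CPM and the KO tumours 164 ± 52.3 CPM (SD, n = 3 each). The sum was thus 4.45-fold higher in WT tumours than WT liver and 1.5-fold higher in KO tumours than KO liver, or 1.77-fold without KO tumour 2. KO tumours lay 2.2-fold below WT tumours, or 1.86-fold without that library. No test is attached to a sum over chosen genes. In bulk tissue, fewer dividing cells and less RNA per cell cannot be told apart.

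The mitotic genes carried most of this difference. Their sum was 20.8 ± 8.76 CPM in WT liver against 30.9 ± 15.3 CPM in KO liver (SD, n = 2 each), and 238 ± 65.4 CPM in WT tumours against 79.9 ± 46.3 CPM in KO tumours (SD, n = 3 each). That is 11.5-fold higher in WT tumours than WT liver, 2.59-fold higher in KO tumours than KO liver (3.39-fold without KO tumour 2), and 2.98-fold lower in KO than WT tumours (2.28-fold without KO tumour 2). The S-phase sum moved over a narrower range, from 60 ± 7.77 CPM (WT) and 78.2 ± 11.1 CPM (KO) in liver (SD, n = 2 each) to 121 ± 15.3 CPM (WT) and 83.6 ± 10.5 CPM (KO) in tumours (SD, n = 3 each). It was 2.02-fold higher in WT tumours than WT liver and 1.07-fold higher in KO tumours than KO liver (1.13-fold without KO tumour 2). S-phase transcripts made up 66.9 to 81.8% of the 48-gene sum in the 4 livers and 31.5 to 39.6% in WT tumours. In the KO tumours they made up 40.1, 71 and 52%, with KO tumour 2 inside the range of the livers.

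**Figure D2:**
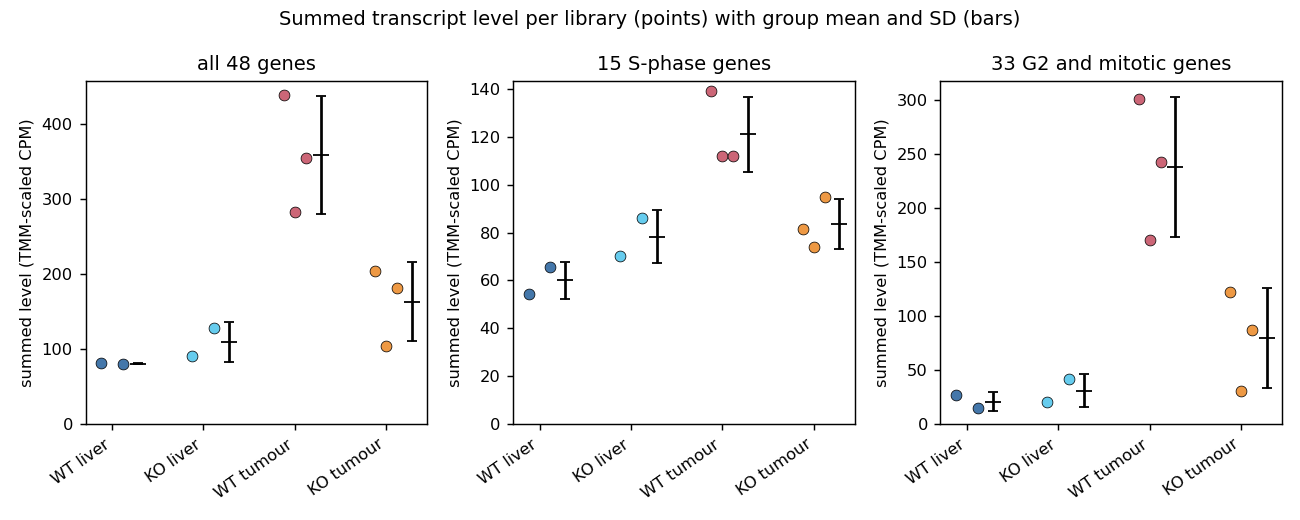
Summed level (TMM-scaled CPM, vertical axis) of all 48 genes, the 15 S-phase genes and the 33 G2 and mitotic genes in each library (points), with group mean and SD (bars; n = 2 per liver group, n = 3 per tumour group). The mitotic sum is 171 to 301 CPM in WT tumours, 30.3 to 122 in KO tumours and 14.6 to 41.7 in the livers.

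Many single genes were near the counting limit in liver. Of the 48 genes, 17 to 21 had no count in a given liver library, 2 to 5 had none in a WT tumour, and 5, 16 and 8 had none in KO tumours 1, 2 and 3. Cdc25c, the phosphatase that activates Cdk1, had no count in any library. The library with the highest level was a WT tumour for 38 of the 47 genes detected (80.9%), against 36.2% of all genes tested, and for 29 of the 32 mitotic genes detected. A filter on low counts kept 45 of the 48 genes, all but Cdc25c, the helicase subunit Gins2 and the checkpoint kinase Bub1. On the livers alone 23 would have passed, and 20 passed on the tumours but not on the livers alone, so counts of calls over the 45 describe genes that were partly kept for being high in tumours.

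**Figure D3:**
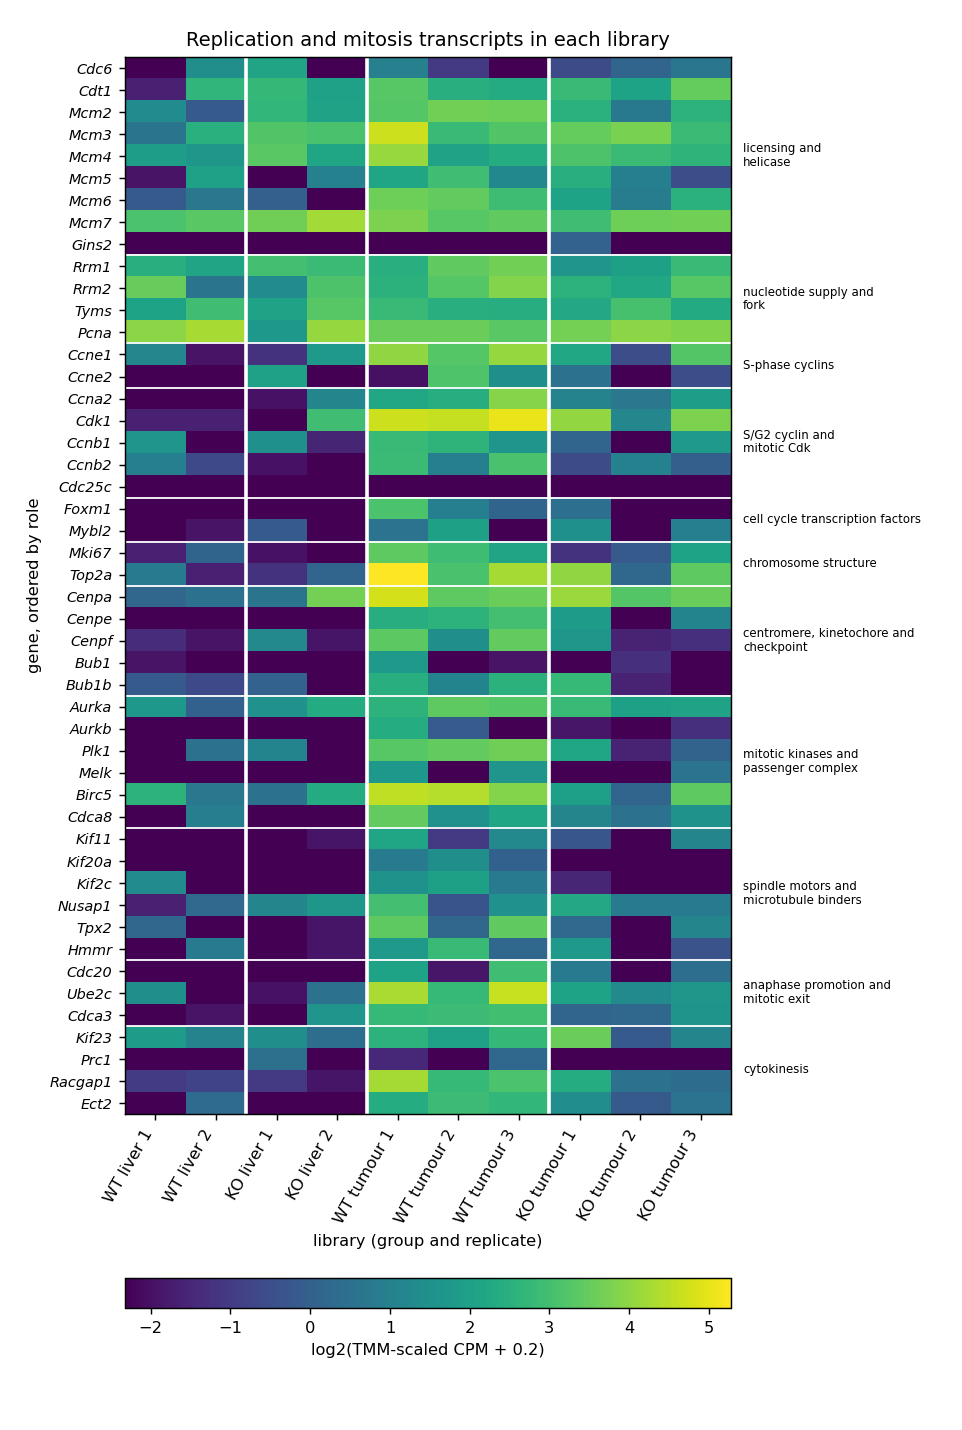
Level of each of the 48 genes (rows, ordered by role) in each of the 10 libraries (columns), as log2(TMM-scaled CPM + 0.2), where the darkest colour is no count. Mitotic rows are dark in the 4 livers and in much of KO tumour 2, and the rows of Mcm7 and Pcna are among those that are bright in every group.

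In WT tumours against WT liver, 7 of the 45 tested genes rose and 0 fell by edgeR's quasi-likelihood test at a Benjamini-Hochberg adjusted p under 0.05. Of all 15811 genes tested, 3.64% rose and 4.7% fell. All 7 are mitotic genes, namely Cdk1, Ccna2, Cenpa, Racgap1, Top2a, Cdca3 and Cenpe. An unadjusted p under 0.05 was reached by 21 of the 45 genes, against 21.4% of all genes, and DESeq2 called 21 of 45 higher, against 8.27% of all genes. Of the 23 genes that passed the filter on livers alone, 2 were called. The median log2 fold change of the 45 was 3.5 (3.13 with groups without counts set to the limit), that of those 23 was 2.05, and that of all genes tested was 0.09.

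Cdk1 (chr10:69335146-69352938, minus strand, GRCm38), the kinase that starts mitosis, was at 0.126 CPM in both WT livers and at 25.7, 24.2 and 33.2 CPM in the WT tumours. The groups did not overlap and the 2 livers together held 4 counts, so the ratio is 220 with a 95% counting interval of 85.7 to 809. Its fitted log2 fold change was 7.69 (SE 1.64, adjusted p = 0.0077), and it was called in all 15 alternative analyses. Ccna2 (chr3:36564865-36572150, minus strand), cyclin A, had no count in WT liver and 4.48, 5.1 and 14.8 CPM in WT tumours. It was at least 42.9-fold higher (adjusted p = 0.012), and it was called in 12 of the 15 alternatives. An exon of Ccna2 shares 428 bases with one of Exosc9 on the opposite strand, so its reads are uncertain unless counting used strand.

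Cenpa, the histone H3 variant that marks centromeres (chr5:30666777-30674830, plus strand), was at 0.943 and 1.26 CPM in WT liver and 27.7, 10.2 and 11.7 CPM in WT tumours. It rose 14.9-fold (log2 3.90, SE 0.89, adjusted p = 0.012). Racgap1, which helps to place the division furrow in cytokinesis (chr15:99620496-99651656, minus strand), was at 0.314 and 0.378 CPM in WT liver and 18.9, 6.63 and 8.47 CPM in WT tumours. It rose 32-fold (log2 5.00, SE 1.24, adjusted p = 0.02). Top2a, the topoisomerase that untangles sister DNA (chr11:98992943-99024189, minus strand), was at 1.51 and 0.126 CPM in WT liver and 38.6, 8.37 and 18.8 CPM in WT tumours. It rose 26.6-fold (log2 4.73, SE 1.25, adjusted p = 0.028). Of the 15 alternatives, 13 called Cenpa, 12 called Racgap1 and 11 called Top2a, whose highest adjusted p was 0.13. For each of these genes the lowest WT tumour lay above the higher WT liver, and WT tumour 1 was the highest library.

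Cdca3, a trigger of mitotic entry (chr6:124829547-124833701, plus strand), had 1 count in the 2 WT livers together and stood at 6.62, 7.14 and 7.7 CPM in WT tumours. The ratio is 226 with a 95% counting interval of 40.3 to 8950 (log2 7.50, SE 2.16, adjusted p = 0.044). Cenpe, the kinesin that carries chromosomes to the spindle equator (chr3:135212537-135273611, plus strand), had no count in any liver and stood at 5.11, 5.83 and 7.76 CPM in WT tumours. It was at least 33-fold higher than WT liver (adjusted p = 0.045). Both were close to the threshold, and each was called in 7 of the 15 alternatives. The 3 WT tumours were more alike in these low genes than in Top2a.

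**Figure D4:**
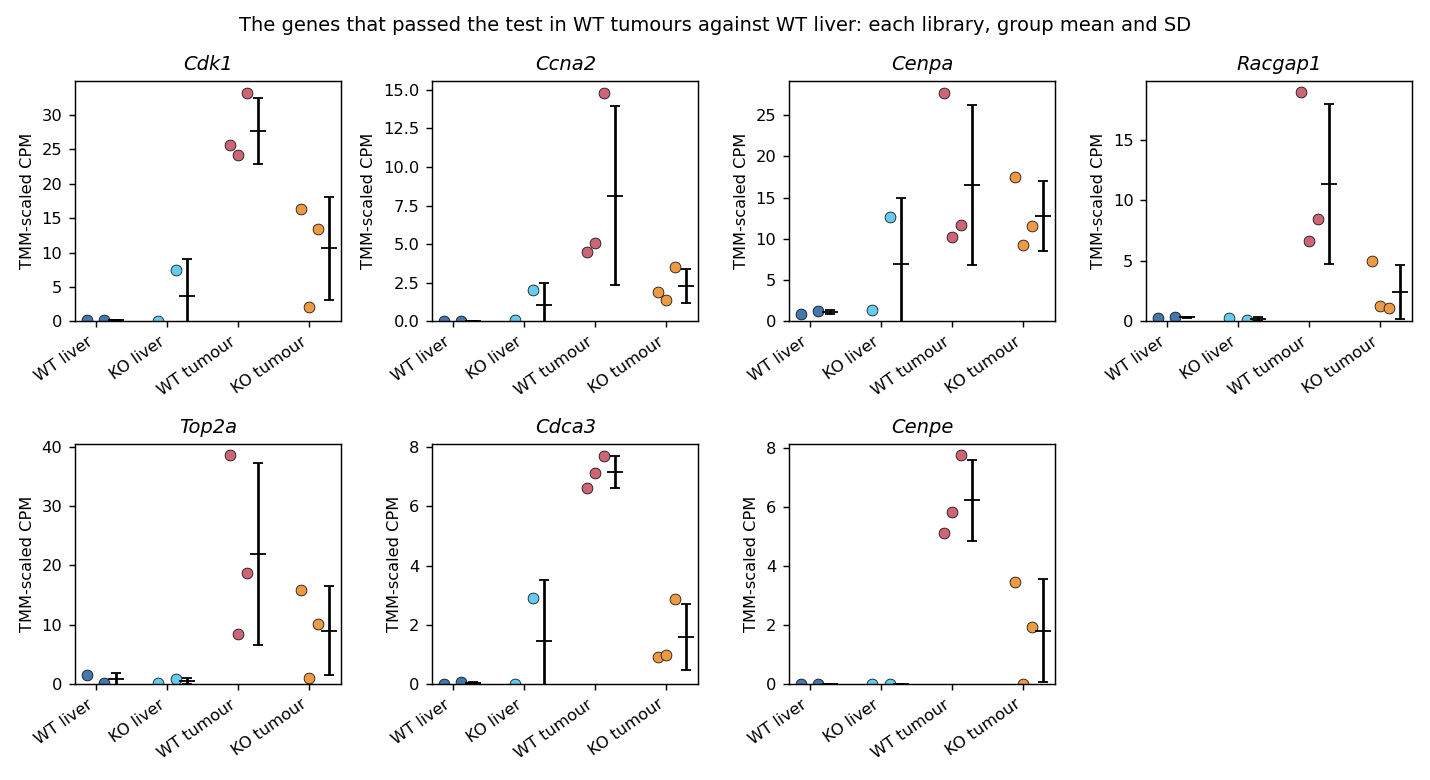
Level (TMM-scaled CPM, vertical axis) of the 7 genes that passed the test in WT tumours against WT liver, in each library (points) of the 4 groups, with group mean and SD (bars; n = 2 per liver group, n = 3 per tumour group). WT liver is near 0 for all 7, and KO liver 2 stands at 7.51 CPM for Cdk1 and 12.6 CPM for Cenpa while KO liver 1 stands at 0 and 1.32.

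Genes used most often to mark dividing cells did not all pass. Mki67, which coats mitotic chromosomes and encodes the Ki-67 antigen, was at 0.126 and 0.883 CPM in WT liver and 10.2, 7.35 and 4.11 in WT tumours. These libraries did not overlap, but the log2 fold change of 3.82 (SE 1.61) had an adjusted p of 0.18. Ccnb1, cyclin B1, was at 2.95 and 0 CPM in WT liver and 6.88, 5.9 and 2.95 in WT tumours (log2 1.82, SE 1.93, adjusted p = 0.65). Its lowest tumour and its higher liver stood at the same 2.95 CPM.

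The remaining mitotic genes had higher means in WT tumours without passing the test, and 32 of the 33 mitotic genes had a higher mean in WT tumours than WT liver, with Cdc25c at 0 in both. Over all 45 tested genes, 28 had every WT tumour above every WT liver, against 19.6% of all genes. Among the kinases, Plk1 stood at 0 and 1.26 CPM in WT liver and 9.69, 10.8 and 12.1 in WT tumours, and Aurka at 3.14 and 0.82 against 5.83, 10.2 and 9.56. Birc5, the survivin subunit of the chromosomal passenger complex, stood at 5.78 and 1.45 CPM in WT liver and 23, 21.3 and 14.4 in WT tumours. Ube2c, the ubiquitin-conjugating enzyme of the anaphase-promoting complex, stood at 2.58 and 0 CPM against 19.5, 6.63 and 24.6. Aurkb, Melk, Kif11, Kif20a, Cdc20, Prc1 and Foxm1 had no count in WT liver. In WT tumours their libraries spanned 0 to 8.49 CPM, and Aurkb, Melk and Prc1 were at 0 in 1 tumour each. Foxm1, the transcription factor of the G2 programme, was uneven among WT tumours at 8.49, 1.75 and 0.898 CPM.

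The WT tumours differed among themselves, and not in 1 order. Cenpf, a kinetochore protein, stood at 10.1, 2.55 and 10.8 CPM against at most 0.189 in WT liver. Tpx2, which activates Aurora A on the spindle, stood at 10.2, 0.947 and 10.5 CPM against 0.943 and 0. The checkpoint kinase Bub1b stood at 5.37, 1.97 and 5.71 CPM against 0.691 and 0.442, and cyclin B2 (Ccnb2) at 7.08, 1.75 and 8.34 against 1.76 and 0.442. WT tumour 2 was the lowest for these genes and the highest for Hmmr, a spindle protein, at 3.23, 6.77 and 0.962 CPM, and for the transcription factor B-Myb (Mybl2), at 1.3, 3.79 and 0 CPM. WT tumours and WT liver overlapped or met at a shared value for Ccnb1, Ccnb2, Mybl2, Bub1, Melk, Aurkb, Kif2c, Nusap1, Hmmr and Prc1 among the mitotic genes.

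None of the 14 tested S-phase genes rose or fell by the test in WT tumours, and 5 of them had an unadjusted p under 0.05, against 21.4% of all genes. The origin licensing and helicase genes summed to 24.9 ± 11.8 CPM (SD, n = 2) in WT liver and 67.2 ± 23 (SD, n = 3) in WT tumours. Mcm2, a helicase subunit, was nearest to the threshold, at 2.32 and 0.694 CPM in WT liver against 9.43, 12.4 and 12 in WT tumours (log2 2.89, SE 0.88, adjusted p = 0.057). Mcm6 stood at 0.691 and 1.45 CPM against 12, 10.8 and 7.31, whereas Mcm7 stood at 8.48 and 9.97 against 13.5, 9.68 and 10.6, with overlapping groups. Mcm3 and Mcm4 were highest in WT tumour 1, at 25.9 and 17.1 CPM, and stood between 4 and 9.17 CPM in the other 2 WT tumours. The cyclin E gene Ccne1 stood at 2.07 and 0.0631 CPM in WT liver and 15.9, 9.47 and 16.6 in WT tumours. Its partner gene Ccne2 was uneven, with none in WT liver and 0.0521, 8.81 and 2.57 CPM in WT tumours.

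The nucleotide supply and fork genes, Rrm1, Rrm2, Tyms and Pcna, summed to 34.1 ± 2.58 CPM (SD, n = 2) in WT liver and 36 ± 6.41 (SD, n = 3) in WT tumours. Pcna, the sliding clamp, stood at 15.2 and 19.2 CPM in WT liver and 11.4, 11.7 and 9.82 in WT tumours. It was the only tested gene of the 45 with every WT tumour below every WT liver, against 17.6% of all genes, and its log2 fold change of -0.65 (SE 0.55) had an adjusted p of 0.54. Pcna counts are uncertain, because a near-identical pseudogene, Pcna-ps2, held 2009 counts over the 10 libraries and reads could be split between them. Rrm2, the regulated subunit of ribonucleotide reductase, stood at 11.2 and 1.32 CPM in WT liver and 5.73, 9.39 and 14.5 in WT tumours. Its spread between the 2 livers was thus as wide as that among the tumours. Cdc6, Cdt1 and Mcm5 overlapped between the groups too, and Gins2 had counts in KO tumour 1 alone (0.848 CPM).

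In KO tumours against KO liver, edgeR's test called 0 of the 45 genes in either direction, against 0.0759% of all genes. An unadjusted p under 0.05 was reached by 9, against 9.61% of all genes, and by 11 without KO tumour 2, against 11.6%. Of the 23 genes that passed the filter on livers alone, 2 reached it (8.7%), and their median log2 fold change was 0.47. Kif20a had no count in either group and so had no fold here. DESeq2 called 5 of 43 higher (Cdca8, Cenpe, Ect2, Racgap1 and Top2a), against 2.66% of all genes. Mean levels were still higher in KO tumours for 30 of the 33 mitotic genes and for 9 of the 15 S-phase genes, against 53.1% of all genes tested. Without KO tumour 2 these counts were 29 and 10, against 51.1%. All KO tumours lay above both KO livers for 8 of the 45, against 14.3% of all genes, and all lay below for 1, Rrm1, against 12.4%. Without KO tumour 2, 18 of the 45 lay above, against 23.5% of all genes. The 8 were Mcm6, Ccnb2, Mki67, Top2a, Cdca8, Ube2c, Racgap1 and the cytokinesis factor Ect2. The median log2 fold change of the 45 was 1.35, and 1.06 with groups without counts at the limit. It was 1.64 without KO tumour 2, against 0.03 for all genes.

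Top2a had the smallest p, at 0.229 and 0.921 CPM in KO liver and 15.9, 0.977 and 10.2 in KO tumours (log2 3.98, SE 1.22, adjusted p = 0.27). KO tumour 2 was barely above KO liver 2, while the other 2 tumours were at least 10.2 CPM. Cdca8, the borealin subunit of the passenger complex, had no count in KO liver and 2, 1.26 and 2.74 CPM in KO tumours, at least 10.4-fold higher (adjusted p = 0.27). Mki67 stood at 0.0572 and 0 CPM in KO liver and 0.231, 0.698 and 4.04 in KO tumours (log2 5.43, SE 1.88, adjusted p = 0.34), with KO tumour 3 far above the other 2.

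Cdk1 stood at 0 and 7.51 CPM in KO liver and 16.3, 2.09 and 13.4 in KO tumours (log2 1.51, SE 1.11, adjusted p = 0.67). The groups overlapped through KO liver 2 and KO tumour 2. Ccnb1 had equal means of 1.39 CPM in both groups (log2 0, SE 1.80, adjusted p = 1). Mcm2 (log2 -0.27, SE 0.78, adjusted p = 0.96) and Pcna (log2 0.52, SE 0.56, adjusted p = 0.83) also overlapped.

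Between the untreated livers, edgeR called 0 of the 45 genes against 0.00632% of all genes. Among the 45, 9 had an unadjusted p under 0.05, against 7.28% of all genes. Of the 23 genes that passed the filter on livers alone, 1 reached it (4.35%). Cenpe, Cdc20, Foxm1, Aurkb, Melk and Kif20a had no count in any liver, so they had no fold in this comparison. DESeq2 also called 0. Both KO livers lay above both WT livers for 8 genes and below for 3, against 15.5% of all genes in each direction. The 8 were the helicase genes Mcm2, Mcm3, Mcm4 and Mcm7, Rrm1, Ccna2, Cenpa and the spindle protein Nusap1, and the 3 were Ccnb2, Mki67 and Racgap1. Helicase and licensing genes summed to 44.9 ± 5.91 CPM (SD, n = 2) in KO liver against 24.9 ± 11.8 (SD, n = 2) in WT liver. Mcm3 stood at 1.32 and 5.42 CPM in WT liver and 9.15 and 8.36 in KO liver. Mcm2 stood at 6.29 and 3.97 CPM in KO liver (log2 1.76, SE 0.89, adjusted p = 0.71).

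A few mitotic genes were present in KO liver 2 and nearly absent from the other 3 livers. Cdk1 was at 7.51 CPM there and at most 0.126 elsewhere in liver. Cenpa was at 12.6 CPM there and at most 1.32 elsewhere, and Cdca3 was at 2.9 CPM against at most 0.0631. Top2a and Mki67 were not raised in KO liver 2, at 0.921 and 0 CPM. Ccna2 had 30 counts in KO liver and none in WT liver, at least 5.59-fold higher (adjusted p = 0.54), and the Cdk1 ratio was 26.6 with a 95% counting interval of 10.1 to 99.6 (log2 4.80, SE 1.58, adjusted p = 0.56). All 106 Cdk1 counts of KO liver came from KO liver 2, so that interval does not measure the spread between animals. Without KO liver 2 both liver groups were at or under the counting limit for Cdk1 and Ccna2, so no direction can be given. The other genes always reported had log2 fold changes of -3.73 for Mki67 (SE 1.86), -0.53 for Top2a (SE 1.23), -0.08 for Ccnb1 (SE 1.99) and -0.81 for Pcna (SE 0.61), with adjusted p from 0.7 to 1.

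In KO against WT tumours, edgeR called 0 of the 45 genes, although 4.52% of all genes were called, and 5 of the 45 had an unadjusted p under 0.05, against 14.9% of all genes. Without KO tumour 2 that count was 0, against 11.6% of all genes. DESeq2 also called 0. Mean levels nevertheless lay lower in KO tumours for 42 of the 48 genes, against 51.5% of all genes tested, and for 41 without KO tumour 2, against 51.6%. For the mitotic genes the count was 32 of 33, with Cdc25c at 0 in both, and for the S-phase genes 10 of 15, or 30 and 11 without KO tumour 2. All KO tumours lay below all WT tumours for 15 of the 45, against 10.9% of all genes, and for 17 without KO tumour 2, against 15% of all genes. The 15 were Mcm2, Mcm6, Ccne1, Ccna2, Cdk1, Mki67, Cenpe, Plk1, Birc5, Kif20a, Kif2c, Ube2c, Cdca3, Racgap1 and Ect2. Pcna was the 1 gene with all KO tumours above all WT tumours, against 12.2% of all genes. Its pseudogene Pcna-ps2 stood at 20.4, 16.3 and 2.5 CPM in WT tumours and 11.3, 13.3 and 11.5 CPM in KO tumours. As reads could be split between them, the order of Pcna is uncertain. The median log2 fold change of the 45 was -1.55, and -1.06 without KO tumour 2, against -0.03 for all genes in both fits. Some of the 45 passed the filter only through high tumour libraries. For the 23 genes that passed on livers alone the median was -0.82, and 2 of them (8.7%) had an unadjusted p under 0.05.

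Birc5 had the smallest p, with 23, 21.3 and 14.4 CPM in WT tumours, while KO tumours held 3.7, 0.908 and 10.2 CPM (log2 -1.99, SE 0.79, adjusted p = 0.23). Kif20a, a kinesin of the central spindle, had 1.56, 2.55 and 0.834 CPM in WT tumours and no count in KO tumours, at least 7.53-fold lower (adjusted p = 0.23). Kif20a also shares exon sequence with Cdc23 on the opposite strand. Kif2c, a kinesin that takes microtubules apart, had 2.81, 3.79 and 1.6 CPM in WT tumours, while KO tumours held 0.154, 0 and 0 CPM, a total of 2 counts. Its ratio was 55.6-fold lower with a 95% counting interval of 15.1 to 464, but edgeR's test did not call it (adjusted p = 0.29). For each of these genes the groups were separate, and the KO tumours were at or near the counting limit for both kinesins.

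Cdk1 stood at 16.3, 2.09 and 13.4 CPM in KO tumours, all below the lowest WT tumour at 24.2 (log2 -1.39, SE 0.95, adjusted p = 0.57). Mki67 stood at 0.231, 0.698 and 4.04 CPM against a lowest WT value of 4.11 (log2 -2.12, SE 1.25, adjusted p = 0.48). Top2a stood at 15.9, 0.977 and 10.2 CPM and overlapped with WT tumour 2 at 8.37 (log2 -1.28, SE 0.89, adjusted p = 0.58). Ube2c was more evenly low, at 4.01, 2.3 and 3.03 CPM against at least 6.63 in WT tumours, and it passed the test when only the 2 tumour groups were fitted. Mcm2 stood at 5.55, 1.47 and 5.77 CPM (log2 -1.40, SE 0.71, adjusted p = 0.38) and Ccnb1 at 0.925, 0 and 3.24 (log2 -1.91, SE 1.67, adjusted p = 0.72). Pcna stood at 12.8, 15.4 and 14.1 CPM (log2 0.36, SE 0.50, adjusted p = 0.86). In KO tumour 1, Kif23 (11.6 CPM) and Bub1b (6.55 CPM) lay above every WT tumour, and Cenpa (17.5 CPM) lay above WT tumours 2 and 3.

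By role, the anaphase and mitotic exit genes were 4.98-fold lower in KO than WT tumours as a sum (4.13-fold without KO tumour 2), the spindle motor genes 3.68-fold (2.69-fold) and the mitotic kinase and passenger genes 3.47-fold (2.7-fold). The centromere and checkpoint genes were 2-fold lower (1.63-fold without KO tumour 2), the helicase and licensing genes 1.43-fold (1.35-fold) and the nucleotide supply and fork genes 1.16-fold (1.17-fold). KO tumour 2 had the lowest mitotic sum of the 6 tumours, at 30.3 CPM, within the 14.6 to 41.7 CPM of the livers. KO tumours 1 and 3 lay between the livers and the WT tumours.

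**Figure D5:**
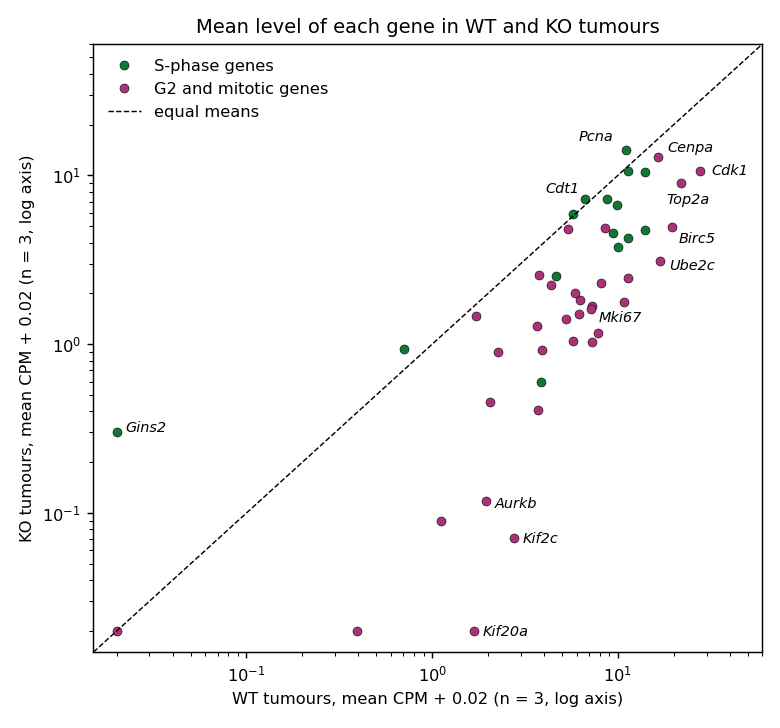
Mean level of each gene in KO tumours (vertical axis) against WT tumours (horizontal axis), both as mean TMM-scaled CPM + 0.02 of 3 libraries on log axes, with S-phase and mitotic genes in different colours. Of the 48 points 42 lie below the dashed line of equal means, and the 5 above it, Pcna and Gins2 among them, are S-phase genes.

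Whether the difference between tumour and liver itself differed between genotypes was tested with an interaction term. By edgeR 0 of the 45 genes passed, against 1.59% of all genes. Among the 45, 8 had an unadjusted p under 0.05, against 12.7% of all genes. Without KO tumour 2 that count was 7, against 11.3%. Of the 23 genes that passed the filter on livers alone, 2 reached it (8.7%). Cenpe, Cdc20, Foxm1, Aurkb, Melk and Kif20a had no count in any liver, so their interaction cannot be estimated although they are among the 45. DESeq2 called 2 of 42 with a smaller rise in KO (Ccna2 and Cdca3), against 1.87% of all genes. The smallest p by edgeR was that of Ccna2 (log2 -8.84, SE 2.44, adjusted p = 0.11) and then Cdk1 (log2 -6.19, SE 1.84, adjusted p = 0.13). Both values rest on KO liver 2 as well as on the tumours, and without that liver neither has a fold, since both liver groups are then at or under the counting limit. Mki67 (log2 1.61, SE 2.00), Top2a (log2 -0.75, SE 1.54), Ccnb1 (log2 -1.82, SE 2.59), Pcna (log2 1.17, SE 0.79) and Mcm2 (log2 -3.16, SE 1.14) had adjusted p from 0.24 to 0.93. A larger rise in WT than KO tumours was therefore not established by edgeR for any single gene.

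Of 130 further genes of the same pathways, 121 were tested. In WT tumours against WT liver 7 rose and 2 fell, 2 and 1 of 47 replication genes, 5 and 1 of 54 mitosis genes, and 0 of 20 regulators of cell cycle transcription such as the E2F and Rb families. That is 5.79% higher and 1.65% lower, against 3.64% and 4.7% of all genes, and 30 of the 121 (24.8%) had an unadjusted p under 0.05, against 21.4%. The 9 calls became 5 with a replicate block, where 455 of 15811 genes were called higher and 620 lower. They became 26 by DESeq2, where 1265 of 15296 genes were called higher and 1103 lower. With 1 library left out they became 5 to 12, where 365 to 710 genes were called higher and 505 to 807 lower. Lig1, Spc25, Psrc1 and Mcm10 were called in all 15 alternatives, whereas Tacc3 was lost with the block and without WT liver 1, WT liver 2 or any 1 WT tumour, and Ccnf was lost without WT liver 1 or WT tumour 1. Lig1, the ligase that seals Okazaki fragments, rose from 4.52 and 7.57 CPM to 35, 28 and 31.7 (log2 2.38, SE 0.43, adjusted p = 0.0022). Spc25, a kinetochore subunit, rose from 5.66 and 1.58 CPM to 23, 17.4 and 42.2 (log2 2.92, SE 0.58, adjusted p = 0.0048). Psrc1, a spindle protein, had no count in any liver and 13.6, 45.2 and 11 CPM in WT tumours, at least 123-fold higher (adjusted p = 0.0067). Tacc3, a spindle microtubule stabiliser, had 1 count in WT liver and 309 in WT tumours, a ratio of 202 with a 95% counting interval of 36 to 8020 (adjusted p = 0.028). These genes had non-overlapping groups, and in KO tumours Psrc1 stood at 5.7, 0.0698 and 0.649 CPM.

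The 2 genes that fell were Mcm10, which helps to start the replication fork, and Ccnf, cyclin F, a substrate receptor of a ubiquitin ligase. Mcm10 stood at 71.9 and 69.4 CPM in WT liver and at 131 and 145 CPM in KO liver. In tumours it stood at 27.8, 11.6 and 15.6 CPM (WT) and at 90.6, 193 and 87.5 CPM (KO). It fell in WT tumours against WT liver (log2 -1.94, SE 0.37, adjusted p = 0.0035) and was the 1 pathway gene called in KO against WT tumours, where it was higher (log2 2.75, SE 0.35, adjusted p = 2e-04). Its levels ran opposite to those of Mcm2 and Mcm6 between liver and WT tumours. Ccnf fell from 26.5 and 14.5 CPM in WT liver to 2.34, 5.39 and 5.13 in WT tumours (log2 -2.26, SE 0.55, adjusted p = 0.017). In KO against WT tumours 12 of the 121 had an unadjusted p under 0.05 (9.92%), against 14.9% of all genes. No pathway gene was called by edgeR in the other 3 comparisons. DESeq2 called 4 in KO tumours against KO liver, where it called 385 of 14481 genes higher and 42 lower. It called 3 in KO against WT liver, where 89 of 14077 genes were called higher and 113 lower. For the interaction it called 6, where 469 of 14077 genes were called positive and 263 negative. An unadjusted p under 0.05 was reached by 14 of 121 in KO tumours against KO liver (11.6%, against 9.61% of all genes). It was reached by 15 in KO against WT liver (12.4%, against 7.28%) and by 15 for the interaction (12.4%, against 12.7%).

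Markers of other cell types were read beside these values, as summed levels over each list. Neutrophil markers summed to 23.9 to 24.3 CPM in WT liver, 11.5 to 12.6 in KO liver, 55.1 to 218 in WT tumours and 19 to 200 in KO tumours, with Elane and Ly6g at 0 in all WT tumours. T and NK cell markers summed to 2.21 to 7.48 CPM (WT liver), 9.61 to 10.2 (KO liver), 6.04 to 25 (WT tumours) and 5.31 to 41.7 (KO tumours), with Ncr1 at 0 throughout. B and plasma cell markers summed to 26.2 to 60.9, 49.2 to 79.7, 64.9 to 202 and 62 to 195 CPM in the same order of groups. Macrophage markers summed to 483 to 508, 484 to 768, 708 to 1090 and 665 to 1030 CPM, and red cell precursor markers to 1880 to 2030, 2510 to 2980, 2440 to 4790 and 3350 to 4690. The immune and red cell sums overlapped between WT and KO tumours. Hepatocyte markers summed to 56000 to 59700, 64500 to 65600, 84400 to 110000 and 48500 to 57200 CPM, and cholangiocyte markers to 89.8 to 122, 60.9 to 76.8, 266 to 501 and 53.3 to 279. The library labelled KO tumour 2 was the lowest KO tumour for the neutrophil, T and NK cell, B cell, macrophage, endothelial, stellate and cholangiocyte sums.

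Endothelial sums spanned 304 to 408 CPM and stellate sums 272 to 640 over all 4 groups, but single stellate genes moved with genotype in the tumours. Acta2, the smooth muscle actin of activated stellate cells, stood at 65.7, 17.9 and 21.9 CPM in WT tumours, while KO tumours held 8.94, 0.558 and 3.89 CPM. It was 7.89-fold lower in KO than WT tumours (log2 -2.98, SE 0.78, adjusted p = 0.041 by edgeR). Reln, a secreted matrix protein of quiescent stellate cells, was 1.93-fold lower (log2 -0.95, SE 0.22, adjusted p = 0.023 by edgeR). The collagen gene Col1a1 stood at 85.6, 20.4 and 39.5 CPM in WT tumours, while KO tumours held 35.8, 5.24 and 4.11 CPM (log2 -1.69, adjusted p = 0.25). Of the 9 stellate genes 2 were called, both lower, against 1.27% of all genes, and 7 had an unadjusted p under 0.05, against 14.9%. Log2 fold changes were positive for 3 of the 9. Among these, Dcn stood at 319, 198 and 282 CPM in KO tumours against 193, 106 and 118 in WT tumours. Lrat stood at 29.6, 23.4 and 8.87 CPM in KO tumours against 12.8, 4.95 and 5.07 in WT tumours. Of the other lists, Alb and Apoa1 (hepatocyte) and Sox9 (cholangiocyte) fell and Marco (macrophage) rose in KO against WT tumours. The part of these cell types in the levels of the division genes was not tested.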

How the data were processed

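Whole-transcriptome 3' libraries (strand-specific QuantSeq forward kit, 50 ng of total RNA, per the labels' protocols) were made from 10 mouse samples that the series text calls biological replicates. The authors deposited whole-number read counts per gene, not normalized, made with BWA and featureCounts on mm10, per the submitters' processing notes. Tool versions, the strand setting and the handling of reads with several matches were not given in the sources, so genes with overlapping neighbours or pseudogenes are uncertain.

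Counts were scaled by TMM and tested with edgeR 4.0.16 (R 4.3.3) in 1 quasi-likelihood model over all 10 libraries, after filterByExpr (minimum count 10; 15811 genes kept). The residual degrees of freedom were 6 and the biological coefficient of variation 71.8%. A gene was called at a Benjamini-Hochberg adjusted p under 0.05 over all tested genes. SE is the size of the log2 fold change divided by the square root of the test's F statistic. It was derived from the test, not fitted separately, and is not reliable where a group has no count. Replicates were not duplicates (chi-square per degree of freedom from 39.8 to 94.9). Alternatives were DESeq2 1.42.0, RLE scaling, no filter, only the groups compared, a replicate block and leaving out each library; leaving out KO tumour 2 from counts of ordered libraries and means was chosen after seeing the data. The fit was tested on simulated data, where only genes well above the counting limit were changed. Genes near that limit were not covered.

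The genes, pathway lists and markers were chosen with earlier results of these data known. Folds and SEs are given for called genes, for Mki67, Top2a, Cdk1, Ccnb1, Pcna and Mcm2, for up to 6 called pathway genes by p, and for the 2 smallest p where no gene was called; other genes named by level were chosen after their values were seen. Of 85 marker symbols 2 had no match. Positions are from GENCODE M21 (GRCm38) and promoters from RefSeq.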

Additional observations from a re-analysis of the deposited data

How the results depend on the processing

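The number of the 48 genes called in WT tumours against WT liver was 7. It was 15 of 47 without the filter on low counts, against 925 of 21045 genes called higher. With only the groups compared it was 11 of 44, against 625 of 14481 genes higher. By DESeq2 it was 21 of 45, and with RLE scaling 7 of 45, against 579 of 15811 genes higher. Leaving out 1 library gave 3 to 10, with 3 without WT liver 2, WT tumour 1 or WT tumour 3, 4 without WT liver 1 or KO tumour 3, and Cdk1 called each time. In those fits 365 to 710 of all genes were called higher, of 15470 to 17254 tested. DESeq2 called 8.27% of all genes higher in this comparison. In KO tumours against KO liver the 0 calls became 1 of 47 without the filter (Top2a). There 342 of 21045 genes were called higher and 44 lower. By DESeq2 the calls were 5 of 43, against 2.66% of all genes higher. With 1 library left out the calls were 0 to 1 (Cdk1 without KO liver 2, against 14 of 17222 genes higher). In KO against WT liver the 0 calls became 1 of 47 without the filter (Cdk1), against 39 of 21045 genes higher and 72 lower. In KO against WT tumours they became 2 of 47 without the filter (Birc5 and Ube2c), against 746 of 21045 genes higher and 435 lower. With only the groups compared they became 1 of 43 (Ube2c), against 443 of 13804 genes higher and 238 lower. For the interaction they became 3 of 47 without the filter, against 432 of 21045 genes called positive and 203 negative. By DESeq2 they were 2 of 42, both negative, against 1.87% of all genes. With 1 library left out they were 0 to 4. The 4 came without KO liver 1, where 142 of 17247 genes were called positive and 45 negative. Without KO liver 2, Cdk1 and Ccna2 gave no value in KO against WT liver or in the interaction, because both liver groups were then at or under the limit of 3 counts per library. All KO tumours lay above all KO livers for 8 genes, against 14.3% of all genes. Without KO tumour 2 this held for 18, against 23.5% of all genes, with fewer libraries to order. The 48-gene sum in WT liver was 73 CPM without TMM scaling and 63.5 without Pcna, and the other group sums moved by less than 1 SD.

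Replicate numbers did not pair the samples: deviations of same-numbered libraries from their group means correlated by -0.01 to 0.02. With a replicate block 5 of the 48 genes were called in WT tumours against WT liver (Ccna2, Cdk1, Cenpa, Racgap1 and Top2a). There 455 of 15811 genes were called higher. In the other comparisons the block gave 0 calls. Depth limits the mitotic genes in liver, where many had fewer than 3 counts.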
